A study of Mus musculus with 6 samples.

Results

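A mouse keratinocyte line without integrin α3 was compared with a wild-type keratinocyte line across every transcript cluster on an exon array, with attention to stress functions and gene families rather than to the genes with the largest single differences. The arrays were chosen by their titles, and 4 of the 6 arrays in the series qualified: 2 of the wild-type line MK116 and 2 of the α3-null line MK546. The remaining 2 arrays, of the null line carrying human α3, entered only the estimate of the spread. Both lines were made from neonatal mice and both expressed SV40 large T antigen, a viral oncoprotein that binds p53 and the Rb family. Wild-type and null cells shared the same culture: 33 °C, 8% CO2, plates coated with denatured collagen, and a medium with 0.05 mM CaCl2, EGF at 10 ng/ml, hydrocortisone at 0.4 µg/ml, insulin and interferon-γ at 10 units/ml. Each genotype was represented by 1 line, so the absence of α3 and every other difference between these lines cannot be told apart. The series calls the arrays biological replicates, but no source used here ties the pair of a line to 2 cultures, so the p-values reflect only how these arrays spread, which may be technical. A pair of values given for a line is its 2 arrays.

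Integrin α3β1 is a receptor for laminins, the proteins of the basement membrane beneath the epidermis. In keratinocytes it holds cells to laminin, nucleates focal adhesions that connect to the actin cytoskeleton, and passes signals to kinases of the adhesion plaque. Stress functions in these cells include the unfolded protein response of the endoplasmic reticulum, the heat shock response of the cytosol, the ATF4 response to amino acid shortage, DNA repair, and innate immune sensing of foreign RNA and DNA.

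Values below are intensities from PLIER, a method that merges the probes of a transcript cluster into 1 value per array, and log2 differences are null minus wild type on the log2(intensity + 16) scale, which understates the change of dim genes. A cluster was called at a limma adjusted p under 0.05. Of all 23332 clusters 15.3% were called, 8.49% higher and 6.84% lower in the null line, and 2.72% were called with a difference of 2-fold or more. Both arrays of a line lay above both of the other in 56.3% of clusters and in 63.0% of genes with 1 symbol, so separation of 4 values is by itself common. Of the 14860 genes with 1 symbol, 19.6% were called, 10.8% higher and 8.82% lower, and 3.45% were called at 2-fold or more, with a median log2 difference of -0.01. Calls were rarer among dim genes: the shares were 30.2% in either direction, 17.5% higher and 12.7% lower, among the 8792 genes brighter than the median cluster, called brighter genes below, and 1.01% and 3.26% among the 6068 dimmer ones. After median centring of the arrays 68.1% of calls were higher in the null line, against 55.4% without it, because the median cluster then moved to a log2 difference of 0.07. Median intensity was 96.6 to 108 per array, and Pearson's r was 0.990 to 0.991 between the arrays of a line and 0.969 to 0.971 between wild type and null. Leaving out 1 array lowered every total: 1174 clusters were called without wild-type array 1, 1275 without wild-type array 2, 1528 without null array 1 and 1680 without null array 2, and between 218 and 278 of the 444 called genes named by the rule kept their call. Below, the range of a list's count under these 4 omissions stands beside the lists that are described most fully.

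The targeted gene, Itga3, which encodes the α3 subunit, gave 6364 and 6287 in the wild-type line and 997 and 907 in the null line (log2 difference -2.71 ± 0.07, limma adjusted p = 1.43e-05). Both null arrays lay far below both wild-type arrays, but the value pools probes along all of Itga3, so the remaining signal is only a partial check of the label. Of 16 keratinocyte markers 14 were measured, and their summed intensity was 69225 and 67149 on the wild-type arrays and 69489 and 72206 on the null arrays. The basal keratin genes Krt5 and Krt14 were bright on all 4 arrays, with the lowest value at 11888, and 4 markers rose: Trp63, the master regulator of stratified epithelium (0.29), Itga6 (0.62), Col17a1 (0.39) and the desmosomal cadherin gene Dsg3 (0.61). Krt19, a keratin of simple epithelia, fell from 5101 ± 489 to 869 ± 157 (mean ± SD, n = 2 arrays, here and below for intensities), while Krt18, the other simple epithelial keratin measured, was not called at 2603 ± 76.0 and 2488 ± 148 (log2 difference -0.07 ± 0.07). Of 10 fibroblast markers 2 were called, both lower: Vim, the mesenchymal intermediate filament gene, and the fibronectin gene Fn1 fell, by log2 differences of -2.77 and -1.35, and the summed level of the list was 1903 to 2188 in wild type and 943 to 973 in the null line. Without Vim the fibroblast markers were at or below 241 on every array, and the defining genes Dcn and Lum at or below 35.2. Of 5 endothelial markers only Flt1 was called (-1.56), and the immune, melanocyte, Merkel cell and adipocyte markers had 0 calls by limma. No marker was below 16 on all 4 arrays, so none was at 0. Whether a lower level reflects fewer cells of a kind or less RNA per cell cannot be told apart here, and the part of Vim-expressing cells in the other results was not tested.

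Genes of the focal adhesion plaque, the protein layer that ties integrins to actin, went both ways in the null line. Of 35 measured members 6 rose and 6 fell (17.1% each, median log2 difference 0.08), and 33.3% of its 30 brighter genes were called, close to the 30.2% of all brighter genes. Fermt2, the gene of kindlin-2, which activates integrins by binding the β tail, gave 236 and 237 on the wild-type arrays against 32.7 and 40.7 on the null arrays (log2 difference -2.27 ± 0.11, limma adjusted p = 0.000129). Fermt1, the gene of kindlin-1, the kindlin of epithelia, gave 1151 and 1162 in wild type, and 665 and 669 without α3 (log2 difference -0.78 ± 0.06, limma adjusted p = 0.000891). Parvb, which encodes β-parvin, an actin-binding partner of integrin-linked kinase, gave 88.6 and 90.7 in the wild-type line and 34.8 and 44.2 in the null line (log2 difference -0.93 ± 0.13, limma adjusted p = 0.00769). Both null arrays were below both wild-type arrays for the kindlins and the parvin, and the same held for Kank2, a plaque protein that binds talin, which fell from 183 ± 3.35 to 99.0 ± 2.29. Of the genes that rose, Vcl, which encodes vinculin, the protein that reinforces the talin-actin link under force, rose from 1109 ± 26.7 to 1808 ± 100.0 (log2 difference 0.70 ± 0.07, limma adjusted p = 0.00259), and Lims1, the gene of PINCH, a partner of integrin-linked kinase, rose from 1618 ± 7.46 to 2170.1 ± 83.9. Talin itself, the core integrin activator, was not called: Tln1 gave 655 and 721 in wild type and 795 and 787 in the null line, and Tln2 had a log2 difference of 0.04 ± 0.11.

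The actin list leaned upward. Of 52 genes of actin filaments and contractility 13 rose and 3 fell, with a median log2 difference of 0.09, against 17.5% higher among brighter genes, and 3 to 5 rose when an array was left out. Ablim1, an actin-binding LIM protein, gave 209 and 189 on the wild-type arrays against 733 and 689 on the null arrays (log2 difference 1.76 ± 0.08, limma adjusted p = 0.000109). Cfl1, the gene of cofilin, which severs filaments, gave 692 and 869 in wild type, and 1325 and 1375 without α3 (log2 difference 0.79 ± 0.11, limma adjusted p = 0.00760). Enah, which speeds filament growth at the leading edge, rose from 481 ± 6.68 to 731 ± 0.115, and Fscn1, which bundles filaments in protrusions, rose from 2321 ± 69.6 to 3290.0 ± 148. For all of these the null line was above the wild-type line. Lower in the null line were Ablim3 (from 148 ± 4.15 to 68.3 ± 3.51), a close relative of Ablim1, Gsn, which encodes the severing protein gelsolin (from 3141 ± 67.6 to 2080.2 ± 155), and Tmsb4x, which encodes the monomer-holding thymosin β4 (-0.27). The β-actin gene Actb was not called, with 12855 and 12172 in wild type and 13008 and 14004 in the null line.

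**Figure D1:**
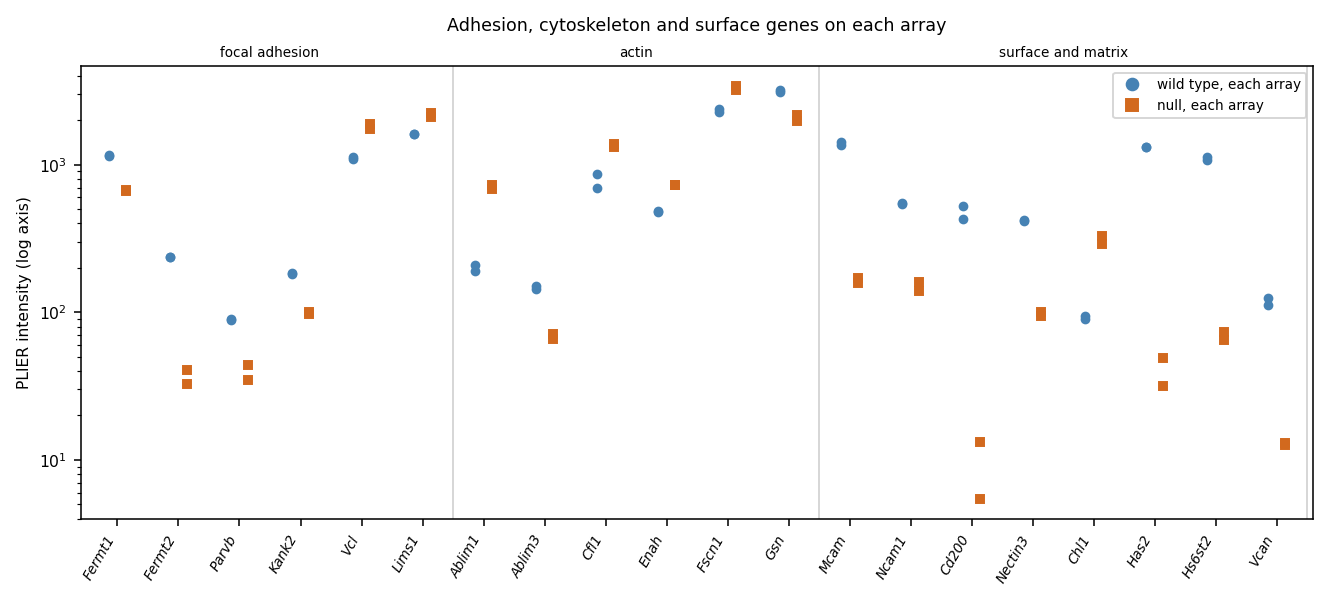
PLIER intensity on a log axis for adhesion, cytoskeleton and surface genes, with a point for each wild-type array (blue circles) and each null array (orange squares); genes are grouped by the labels above the panel. The 2 points of a line lie close together for most genes, and the widest gaps between lines are those of Cd200 and Has2, both lower in the null line.

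Surface adhesion molecules of the immunoglobulin type went both ways in the null line. Of 39 measured genes 7 fell (17.9%) and 5 rose (12.8%), against 12.7% and 17.5% of brighter genes, with a median log2 difference of -0.04. The 26 brighter genes of the list were called in 42.3% of cases, against 30.2% of all brighter genes. Mcam, a cell-cell adhesion molecule first known from melanoma, gave 1423 and 1369 in the wild-type line and 157 and 169.7 in the null line (log2 difference -2.98 ± 0.08, limma adjusted p = 1.90e-05). Ncam1, the neural cell adhesion molecule, gave 548 and 542 on the wild-type arrays against 139.9 and 159 on the null arrays (log2 difference -1.76 ± 0.09, limma adjusted p = 0.000139). Cd200, a ligand that restrains myeloid cells, gave 429.7 and 525 in wild type, and 13.2 and 5.47 without α3, so that the null level was below the pseudocount of 16 and its log2 difference of -4.29 ± 0.18 is compressed. Nectin3, a partner of nectins at adherens junctions, fell from 418 ± 4.59 to 97.0 ± 4.38. All of these were lower on both null arrays, while Chl1, a relative of L1, rose from 92.7 ± 2.89 to 309.8 ± 26.5 (log2 difference 1.58 ± 0.10, limma adjusted p = 0.000374), as did Cd99l2 (0.78) and L1cam (0.53). Icam1, the leukocyte adhesion ligand, was not called (0.43 ± 0.12).

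Sugar polymers of the cell surface and matrix differed mainly through a few enzymes. Has2, the hyaluronan synthase that makes the large matrix polymer, gave 1314 and 1323 in the wild-type line and 31.6 and 48.7 in the null line (log2 difference -4.59 ± 0.16, limma adjusted p = 3.91e-05). Hs6st2, which adds sulfate to heparan sulfate chains, gave 1077 and 1135 on the wild-type arrays against 64.7 and 73.2 on the null arrays (log2 difference -3.72 ± 0.12, limma adjusted p = 3.01e-05). Vcan, the hyaluronan-binding proteoglycan versican, gave 111 and 125 in wild type, and 12.95 and 12.6 without α3 (log2 difference -2.22 ± 0.13, limma adjusted p = 0.000273). Each was lower on both null arrays. Of the 26 hyaluronan and chondroitin genes 5 fell, including the hyaluronidase genes Hyal1 (-0.80) and Hyal2 (-0.59), and 1, Dse, rose (0.68). Of 29 syndecan, glypican and heparan sulfate genes 5 fell and 5 rose, and Sulf2, which removes sulfate from heparan chains outside the cell, fell from 1054 ± 0 to 317 ± 3.15, as did Hpse, the heparan-cutting heparanase (-1.09), and Sdc2 (-0.57). Ext2, a polymerase of the chains, rose from 909 ± 2.86 to 1454 ± 47.8, and Sdc1, the main epithelial syndecan, was not called at 7095 and 6975 in wild type and 6817 and 7544 in the null line. Other surface families lay on both sides of the background in their share of calls. Of brighter Eph receptors and ephrins 46.2% were called, and of brighter semaphorin, plexin, netrin and Slit genes 15.8%, against 30.2% of all brighter genes. Connexins and pannexins, with only 5 brighter genes, were called in 6.25% of all members, against 19.6% of genes with 1 symbol. Of 19 Eph receptors and ephrins 3 rose and 3 fell, led by Ephb4 (-1.04) and Epha4 (0.56); of 37 semaphorin, plexin, netrin and Slit genes 3 rose and 1 fell, led by Neo1 (0.86) and Slit2 (1.45); of 16 connexin and pannexin genes 1, Gjb5, was called (-0.76). Among 23 tubulin and microtubule genes 2 fell and 3 rose. The neural β-tubulin gene Tubb2b fell from 1467 ± 32.5 to 240.0 ± 8.08, and Mapt was lower as well (-0.58). The rises were those of Clasp2 (0.43), Clip1 (0.43) and Tuba4a (0.42).

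Among genes of protein folding, the called heat shock members were mostly higher in the null line, in small steps. Of 38 heat shock proteins and cochaperones 9 rose (23.7%, against 17.5% of brighter genes) and 1 fell, with a median log2 difference of 0.09. Of its 27 brighter genes 33.3% were called, close to the 30.2% of all brighter genes, and 3 to 5 rose when an array was left out. Hspb8, a small heat shock protein, gave 892 and 914 in the wild-type line and 1579 and 1821 in the null line (log2 difference 0.90 ± 0.11, limma adjusted p = 0.00449). Bag3, which works with Hspb8 to send misfolded proteins to autophagy, gave 435 and 442 on the wild-type arrays against 668 and 639.5 on the null arrays (log2 difference 0.56 ± 0.07, limma adjusted p = 0.00574). Hsph1, a nucleotide exchange factor for Hsp70, gave 739 and 736 in wild type, and 1047 and 1078 without α3 (log2 difference 0.52 ± 0.06, limma adjusted p = 0.00441). In each the null arrays were above the wild-type arrays by less than 2-fold. Dnajb4, a J-domain cochaperone, rose by 0.57 ± 0.07 and Chordc1, a partner of Hsp90, by 0.51 ± 0.07. The single fall was that of Hspa13, an Hsp70 relative of the secretory pathway, from 2508 ± 18.2 to 1639 ± 90.6. None of the called members of this list reached 2-fold in the upward direction.

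The ATF4 list, genes turned on when amino acids run short or the endoplasmic reticulum is loaded, also leaned upward. In it 9 of 28 rose (32.1%, against 17.5% of brighter genes), 1 fell and the median log2 difference was 0.24. Ddit3, which encodes the stress factor CHOP, gave 274 and 330.2 in the wild-type line and 474 and 625 in the null line (log2 difference 0.82 ± 0.15, limma adjusted p = 0.0175). Nupr1, a small stress-induced nuclear protein, gave 245 and 357 on the wild-type arrays against 531 and 716 on the null arrays (log2 difference 1.02 ± 0.21, limma adjusted p = 0.0244). Wars, the cytosolic tryptophan-tRNA synthetase, which interferon-γ also induces, gave 1269.8 and 1326 in wild type, and 2087 and 2404 without α3 (log2 difference 0.78 ± 0.08, limma adjusted p = 0.00283). Both null values were higher for these, although the wild-type values of Nupr1 were themselves spread widely. Trib3, a pseudokinase target of CHOP, rose by 0.46 ± 0.06, Shmt2, the mitochondrial serine hydroxymethyltransferase, by 0.51 ± 0.07, and Aldh18a1, which starts proline synthesis, by 0.58 ± 0.08. Atf4 itself, which is regulated mainly through translation, was not called at 5359 and 5182 in wild type and 5166 and 5858 in the null line, nor was Atf3 (-0.12 ± 0.12), and Cebpb fell by 0.40. The count was sensitive to single arrays: 1 member rose without wild-type array 1, 3 without wild-type array 2, 4 without null array 2 and 7 without null array 1.

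Of 33 genes of the unfolded protein response 8 were higher (24.2%) and 2 lower (median 0.01), and 31.2% of its 32 brighter genes were called, close to the 30.2% of all brighter genes. Herpud1, which takes part in degrading misfolded proteins of the endoplasmic reticulum, rose from 1770.3 ± 49.2 to 2811 ± 207 (log2 difference 0.66 ± 0.09, limma adjusted p = 0.00614). Sel1l and Edem1, of the same degradation pathway, rose by 0.50 ± 0.07 and 0.49 ± 0.07, and Ppp1r15a, the phosphatase subunit that ends the eIF2α block, by 0.62 ± 0.10. The chaperone Hyou1 rose by 0.54 ± 0.09. Hspa5, which encodes BiP, the main chaperone of the compartment, was not called, with 9451 and 9016 in wild type and 8549 and 9087 in the null line. Falls were those of Sec61b, a channel subunit (-0.70), and Ero1a, the oxidase that feeds disulfide formation (-0.35). Of 33 proteasome subunit genes 0 rose and 4 fell (12.1%, near the 12.7% of brighter genes), led by Psma7, from 5495 ± 74.5 to 3689 ± 103, and Psmd10 (-0.48). Only 12.5% of the 32 brighter proteasome genes were called, against 30.2% of all brighter genes. Autophagy and lysosome genes gave 5 rises and 3 falls of 50, with the proton pump subunit gene Atp6v0a1 up from 255 ± 4.30 to 525 ± 11.1 and the lysosomal regulator Tfe3 up from 317 ± 0.626 to 493 ± 10.7.

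Genome maintenance genes were called in both directions, 11 of 56 higher (19.6%) and 8 lower (14.3%), close to the 17.5% and 12.7% of brighter genes. Atm, the kinase that answers double-strand breaks, gave 262 and 283 in the wild-type line and 433 and 446 in the null line (log2 difference 0.66 ± 0.08, limma adjusted p = 0.00472). Mre11a, a nuclease that senses broken ends, gave 964 and 1039 on the wild-type arrays against 1488 and 1598 on the null arrays (log2 difference 0.62 ± 0.07, limma adjusted p = 0.00441). Chek1, the checkpoint kinase of replication stress, gave 1227 and 1218 in wild type, and 1756 and 1844 without α3 (log2 difference 0.55 ± 0.08, limma adjusted p = 0.00923). Both null arrays were above both wild-type arrays for these, and the same was true of Rev3l, a subunit of the translesion polymerase zeta (0.77), Bard1, the BRCA1 partner (0.62), and the mismatch repair gene Msh6 (0.52). The falls had smaller sizes, including those of Rev1 (-0.42), which also acts in translesion synthesis, Rad51b (-0.44) and Rad54l (-0.37), which act in homologous recombination. Both lines carried large T antigen, which binds p53.

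Of 33 BCL2 family and caspase genes 6 rose (18.2%) and 5 fell (15.2%), close to the 17.5% and 12.7% of brighter genes. Casp1, the inflammasome caspase that processes IL-1β, gave 58.1 and 66.1 in the wild-type line and 723 and 809 in the null line (log2 difference 3.32 ± 0.09, limma adjusted p = 1.87e-05). Casp12, a neighbour in the same inflammatory caspase group, gave 986 and 958 on the wild-type arrays against 1339 and 1357 on the null arrays (log2 difference 0.47 ± 0.06, limma adjusted p = 0.00524). The null line was higher for both, by far the more for Casp1. Of the genes that fell, Bcl2l1, which encodes the survival protein Bcl-xL, fell from 807 ± 24.0 to 512 ± 12.9, and Bcl2l11, which encodes the pro-death protein Bim, fell from 240.2 ± 9.10 to 116 ± 2.74. Bnip3 and Bnip3l, mitophagy receptors, fell from 1129 ± 27.8 to 523 ± 28.6 and from 1292 ± 56.1 to 534 ± 8.66.

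Innate immune genes were examined with interferon-γ present in both cultures. Of 44 pattern recognition receptors and adaptors 12 rose (27.3%) and 3 fell, against 17.5% and 12.7% of brighter genes, and 2 to 6 rose when an array was left out. The rises included sensors of nucleic acids, the surface receptor gene Tlr6 and the adaptor gene Tirap, and the 3 falls were those of Tlr2, Cd14 and Sting1. Promoters of the members that carry the sequence bound by interferon-activated STAT and IRF complexes, the interferon-stimulated response element, are shown first. Every called immune gene with this motif in its window was higher in the null line, but so were 37 of all 51 called immune genes with a promoter. The motif was searched on both strands as GAAA, any 2 bases, GAAA, in windows of 250 bases before to 50 after each gene start (RefSeq, GRCm38.p6). Capitals mark the motif, which reads as TTTC, any 2 bases, TTTC where it lies on the other strand.
Ddx60, chr8:61927837-61928136, plus strand: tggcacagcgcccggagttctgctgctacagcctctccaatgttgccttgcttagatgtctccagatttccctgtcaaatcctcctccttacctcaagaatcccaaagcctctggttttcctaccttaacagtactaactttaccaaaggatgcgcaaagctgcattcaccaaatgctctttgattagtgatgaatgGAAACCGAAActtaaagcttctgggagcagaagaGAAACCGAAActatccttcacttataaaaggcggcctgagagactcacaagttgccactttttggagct
Gbp7, chr3:142530086-142530385, plus strand: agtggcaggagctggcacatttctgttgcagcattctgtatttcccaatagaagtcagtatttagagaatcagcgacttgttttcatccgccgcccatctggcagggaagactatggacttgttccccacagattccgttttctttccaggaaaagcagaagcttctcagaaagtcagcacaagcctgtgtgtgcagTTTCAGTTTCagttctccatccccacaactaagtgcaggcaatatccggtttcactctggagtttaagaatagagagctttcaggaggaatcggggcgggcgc
Stat2, chr10:128270248-128270547, plus strand: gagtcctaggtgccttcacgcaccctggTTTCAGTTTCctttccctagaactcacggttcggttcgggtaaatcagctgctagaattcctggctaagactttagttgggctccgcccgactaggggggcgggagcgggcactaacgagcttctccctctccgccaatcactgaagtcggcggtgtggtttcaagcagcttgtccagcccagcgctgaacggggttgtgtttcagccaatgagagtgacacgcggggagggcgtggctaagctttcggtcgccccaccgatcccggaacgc
Ifih1, chr2:62646206-62646505, minus strand: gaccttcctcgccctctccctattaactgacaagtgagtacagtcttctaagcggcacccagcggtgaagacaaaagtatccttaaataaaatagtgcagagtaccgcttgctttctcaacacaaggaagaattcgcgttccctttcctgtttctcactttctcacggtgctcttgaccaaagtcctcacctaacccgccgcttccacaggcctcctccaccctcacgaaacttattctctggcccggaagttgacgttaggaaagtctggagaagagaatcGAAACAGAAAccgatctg
Ddx60 holds the motif at 2 places, Gbp7, Stat2 and Ifih1 at 1 each, and in Ifih1 it lies after the gene start, 33 bases in. Of the 66 called genes in the immune lists 51 had a promoter in the table, and 9 genes held the motif: Ddx60, Gbp7, Stat2, Ifih1, Ddx58, Gbp3, Tlr6, Gbp5 and Erap1. A gene can have several windows. The motif was present in 19.15% of the 47 windows of the 37 immune genes called higher and in 0 of 15 windows of the 14 called lower. It was in 7.95% of the 176 windows of the 137 immune genes not called, and in 3.44% of all 32851 windows. With 15 windows the share among lower genes is known only roughly. The GAS element, which STAT dimers bind after interferon-γ, was searched as TTCNNNGAA on both strands and was in 12.8% of the windows of higher, 26.7% of those of lower and 11.9% of those of uncalled immune genes, and in 8.30% of all windows. The κB motif was in 23.4%, 26.7% and 17.0% of the same immune windows and in 8.46% of all windows. A match describes these letters and does not show that a factor binds there.

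Ddx60, a helicase that assists RNA sensing, gave 43.6 and 58.1 in wild type, and 171 and 209.8 without α3 (log2 difference 1.63 ± 0.15, limma adjusted p = 0.00185). Ifih1, which encodes the double-stranded RNA sensor MDA5, gave 401 and 432 in the wild-type line and 649.5 and 751 in the null line (log2 difference 0.73 ± 0.11, limma adjusted p = 0.00854). Mavs, the mitochondrial adaptor on which RNA sensors converge, gave 495 and 451 on the wild-type arrays against 704 and 763 on the null arrays (log2 difference 0.62 ± 0.08, limma adjusted p = 0.00572). The null arrays were above the wild-type arrays for the sensors and for the adaptor. Ddx58, the gene of the RNA sensor RIG-I, rose by 0.44 ± 0.08, Aim2, a sensor of cytosolic DNA, by 0.74 ± 0.11, Tlr3, the endosomal receptor of double-stranded RNA, by 0.45 ± 0.09, and Tlr6 by 0.60 ± 0.13; these 4 and Ifih1 were picked out after their values were seen. Tirap, an adaptor of the surface Toll-like receptors, rose by 0.56 ± 0.07. Against this direction stood 3 falls. Tlr2, the receptor of bacterial lipoproteins, gave 606 and 554 in wild type, and 137 and 141 without α3 (log2 difference -1.94 ± 0.08, limma adjusted p = 8.01e-05). Sting1, the adaptor for cytosolic DNA, gave 251 and 227 in the wild-type line and 68.3 and 75.4 in the null line (log2 difference -1.54 ± 0.10, limma adjusted p = 0.000407). Cd14, a coreceptor of bacterial lipids, gave 183 and 177 on the wild-type arrays against 96.7 and 105 on the null arrays (log2 difference -0.75 ± 0.09, limma adjusted p = 0.00390). Each of these was lower on both null arrays.

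In the signalling chain from interferon receptors to transcription calls were about as frequent as in other brighter genes, and mostly higher. Of 38 receptors, JAK kinases, STAT factors, interferon regulatory factors and SOCS proteins 9 rose (23.7%) and 1 fell, and the median was 0.15. Of its 34 brighter genes 29.4% were called, against 30.2% of all brighter genes, and 2 to 4 rose when an array was left out. Jak2, a kinase bound to the interferon-γ receptor, gave 376 and 386 in wild type, and 628 and 662 without α3 (log2 difference 0.73 ± 0.07, limma adjusted p = 0.00221). Stat2, a subunit of the complex that binds the motif above, gave 502 and 539 in the wild-type line and 786 and 827 in the null line (log2 difference 0.62 ± 0.07, limma adjusted p = 0.00390). Socs2, a suppressor of cytokine signalling, gave 52.0 and 70.1 on the wild-type arrays against 163 and 272 on the null arrays (log2 difference 1.57 ± 0.23, limma adjusted p = 0.00919). In all 3 the null arrays were higher, with a wide gap between the 2 null values of Socs2. Stat6 rose by 0.41 ± 0.06, and the STAT inhibitors Pias1 and Pias4 rose by 0.40 ± 0.07 and 0.42 ± 0.08. The only called fall was that of Cish, a STAT5-induced inhibitor, from 153 ± 9.59 to 111 ± 0.450. Downstream, 4 of 9 guanylate-binding and immunity-related GTPases rose (44.4%, against 17.5% of brighter genes) and 0 fell. Gbp7 gave 2279 and 2324 in wild type, and 3394 and 3397 without α3 (log2 difference 0.56 ± 0.06, limma adjusted p = 0.00325). Gbp5, which promotes inflammasome assembly, gave 105 and 121 in wild type and 183 and 296 in the null line, and Gvin1, a very large interferon-inducible GTPase, rose by 0.73 ± 0.08. Class I antigen presentation was near the background, with 3 of 17 genes higher and 1 lower; Tap1 rose by 0.24 ± 0.06 while its transporter partner Tap2 fell by 0.38.

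**Figure D2:**
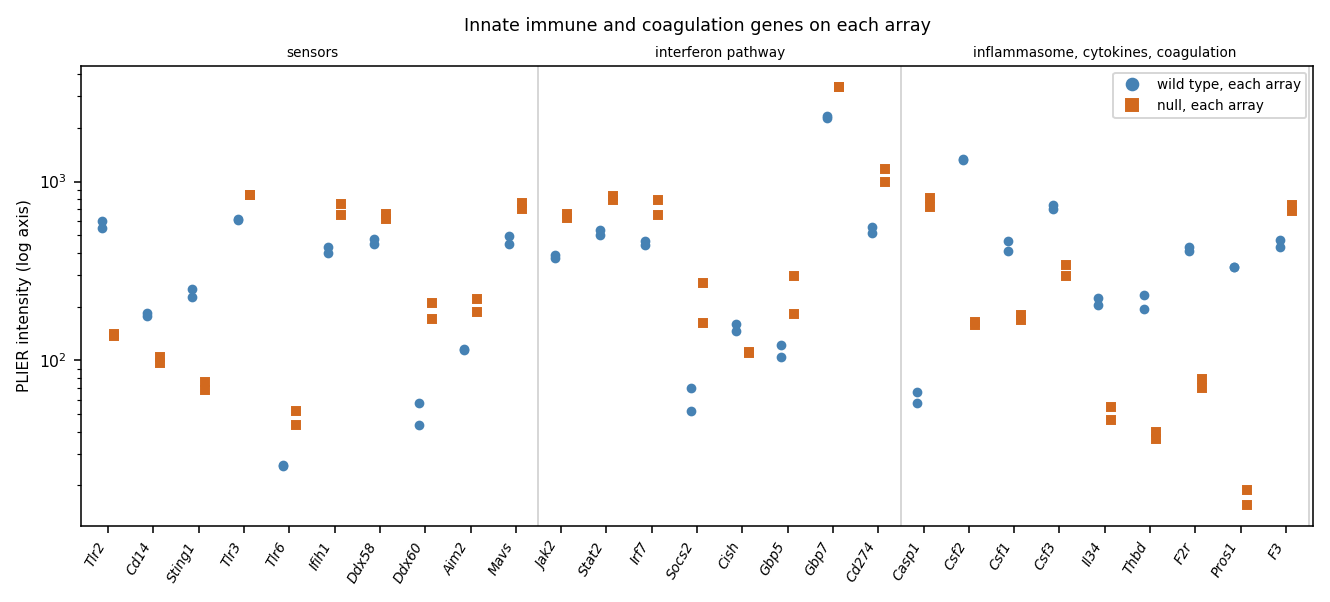
PLIER intensity on a log axis for innate immune, interferon pathway, cytokine and coagulation genes, with a point for each wild-type array (blue circles) and each null array (orange squares). The null points lie above the wild-type points for RNA and DNA sensors, Jak2, Stat2 and Casp1, and below them for Tlr2, Cd14, Sting1, the colony-stimulating factors, Thbd, F2r and Pros1.

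Of 30 NF-κB regulators 7 rose (23.3%) and 4 fell (13.3%), against 17.5% and 12.7% of brighter genes. Nfkb2, the precursor of the p52 subunit, gave 391 and 395 in the wild-type line and 625 and 659 in the null line (log2 difference 0.68 ± 0.09, limma adjusted p = 0.00592), Rel rose by 0.51 ± 0.07, and the kinase gene Tbk1 rose by 0.45 ± 0.07. Of the brakes on the pathway, Tnfaip3 (A20) and Cyld rose by 0.40 ± 0.07 and 0.49 ± 0.09, while Nfkbia, which encodes IκBα (-0.46), and Tnip1 (-0.40) fell. Secreted colony-stimulating factors were lower throughout. Csf2, the gene of GM-CSF, gave 1319 and 1345 on the wild-type arrays against 165 and 158 on the null arrays (log2 difference -2.93 ± 0.11, limma adjusted p = 5.08e-05). Csf1, the macrophage factor, gave 463 and 410.2 in wild type, and 168 and 179 without α3 (log2 difference -1.25 ± 0.11, limma adjusted p = 0.00138). Il34, the other ligand of the macrophage receptor, gave 205 and 224 in the wild-type line and 46.2 and 55.2 in the null line (log2 difference -1.79 ± 0.11, limma adjusted p = 0.000370). Each was lower on both null arrays, and Csf3, the granulocyte factor, fell from 723 ± 30.1 to 321 ± 32.1. Of all 45 cytokine and receptor genes in the list 6 fell and 4 rose, the latter including the IL-17 receptor subunit genes Il17re (0.51) and Il17rc (0.34). The 25 brighter genes of the list were called in 40.0% of cases, against 30.2% of all brighter genes. Among costimulatory molecules and ligands of NK cells 3 of 20 rose: Cd274, which encodes PD-L1, from 538 ± 28.8 to 1088 ± 126, Cd276 by 0.51 ± 0.07 and Tnfsf15 by 1.32 ± 0.13.

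Complement and coagulation genes of the cell surface fell: 8 of 37 were lower (21.6%) and 1 higher, against 12.7% lower among brighter genes, and 4 to 5 fell when an array was left out. The falls included Thbd and Pros1, of the anticoagulant protein C pathway, and the thrombin receptor gene F2r. Thbd, which encodes thrombomodulin, the surface receptor that turns thrombin towards protein C, gave 195 and 233 on the wild-type arrays against 39.8 and 36.1 on the null arrays (log2 difference -2.09 ± 0.12, limma adjusted p = 0.000250). Pros1, the gene of protein S, the cofactor of activated protein C, gave 334 and 331 in wild type, and 18.9 and 15.5 without α3 (log2 difference -3.40 ± 0.10, limma adjusted p = 2.21e-05). F2r, the thrombin receptor PAR1, gave 408 and 431 in the wild-type line and 78.2 and 70.5 in the null line (log2 difference -2.27 ± 0.09, limma adjusted p = 6.98e-05). All 3 were lower on both null arrays, and the null values of Pros1 lay near the pseudocount. Cd55, which protects cells from complement, fell from 529.5 ± 11.1 to 214 ± 0.724. The one rise was that of F3, tissue factor, which starts coagulation, with 431 and 471 on the wild-type arrays against 684 and 739.9 on the null arrays (log2 difference 0.64 ± 0.11, limma adjusted p = 0.0132). The list's dim members, such as C1qa and C1qb, were not called (0.01 and -0.06), and only 9 of its 37 genes were brighter genes.

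Of the 76 lists, ribosome biogenesis had the highest share of calls. Of 45 genes of ribosome assembly and RNA polymerase I, the machinery that makes and trims ribosomal RNA in the nucleolus, 25 rose (55.6%) and 1 fell, with a median log2 difference of 0.35, against 0.03 over all brighter genes. All 45 are brighter genes, of which 17.5% were higher. Ddx21, a nucleolar RNA helicase, gave 1398 and 1369 in wild type, and 2442 and 2419.6 without α3 (log2 difference 0.81 ± 0.09, limma adjusted p = 0.00286). Heatr1, a subunit of the particle that processes the small ribosomal subunit, gave 444 and 458 in the wild-type line and 726 and 681 in the null line (log2 difference 0.62 ± 0.07, limma adjusted p = 0.00314). Nolc1, a nucleolar chaperone of modification particles, gave 1037 and 1008 on the wild-type arrays against 1561 and 1579 on the null arrays (log2 difference 0.61 ± 0.07, limma adjusted p = 0.00347). In each case the null arrays were above the wild-type arrays by under 2-fold, and no member of the list reached 2-fold. Rrp1b rose by 0.70 ± 0.08, Ddx10 by 0.57 ± 0.07 and Ncl, which encodes nucleolin, by 0.68 ± 0.15, the last with a wide gap between the wild-type arrays (1227 and 1630.1 in wild type and 2405 and 2141 in the null line). Pes1, a subunit of the complex that matures the large ribosomal subunit, went the other way, with 931 and 903 in wild type, and 525 and 465 without α3 (log2 difference -0.87 ± 0.10, limma adjusted p = 0.00319). When an array was left out 7 to 14 members rose, the fewest without either wild-type array. Of the 21 cytosolic ribosomal protein genes that had a cluster with 1 symbol 3 rose and 1 fell. Among 47 translation factors and related symbols 10 rose and 2 fell, near the background of brighter genes, with Eif1ad at 0.57 and Eif2b4 at 0.44. This list matched symbols by their start and so also counts the methyltransferase genes Eef1aknmt and Eef1akmt1 and the inhibitor Eif4ebp2.

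Oxidative phosphorylation leaned the other way. Of 55 genes of the respiratory chain and ATP synthase 0 rose and 12 fell (21.8%), with a median log2 difference of -0.15, and 12.7% of brighter genes were lower. Atp5e, the epsilon subunit of ATP synthase, gave 1328 and 1256 in the wild-type line and 736 and 691 in the null line (log2 difference -0.84 ± 0.07, limma adjusted p = 0.000975). Ndufa1, a membrane subunit of complex I, gave 848 and 855 on the wild-type arrays against 506 and 464 on the null arrays (log2 difference -0.79 ± 0.09, limma adjusted p = 0.00336). Ndufs4, a complex I assembly subunit, gave 1418 and 1416 in wild type, and 1079 and 1083 without α3 (log2 difference -0.39 ± 0.06, limma adjusted p = 0.0115). Both null values were lower in each, and again no member reached 2-fold. Further falls were those of Uqcr10 of complex III (-0.37), Ndufv3 (-0.41) and Atp5pb (-0.34). Between 2 and 3 members fell when an array was left out. The tricarboxylic acid cycle did not share this direction: 7 of 27 rose (25.9%) and 1 fell (3.70%), against 17.5% and 12.7% of brighter genes. Of its 23 brighter genes 34.8% were called, close to the 30.2% of all brighter genes. Pdha1 and Dlat, subunits of pyruvate dehydrogenase, rose from 3302 ± 211 to 4818 ± 80.8 and from 1008 ± 54.5 to 1473 ± 29.6, Cs, citrate synthase, by 0.44 ± 0.09 and Ogdh by 0.43 ± 0.07, while Idh3b fell by 0.34.

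**Figure D3:**
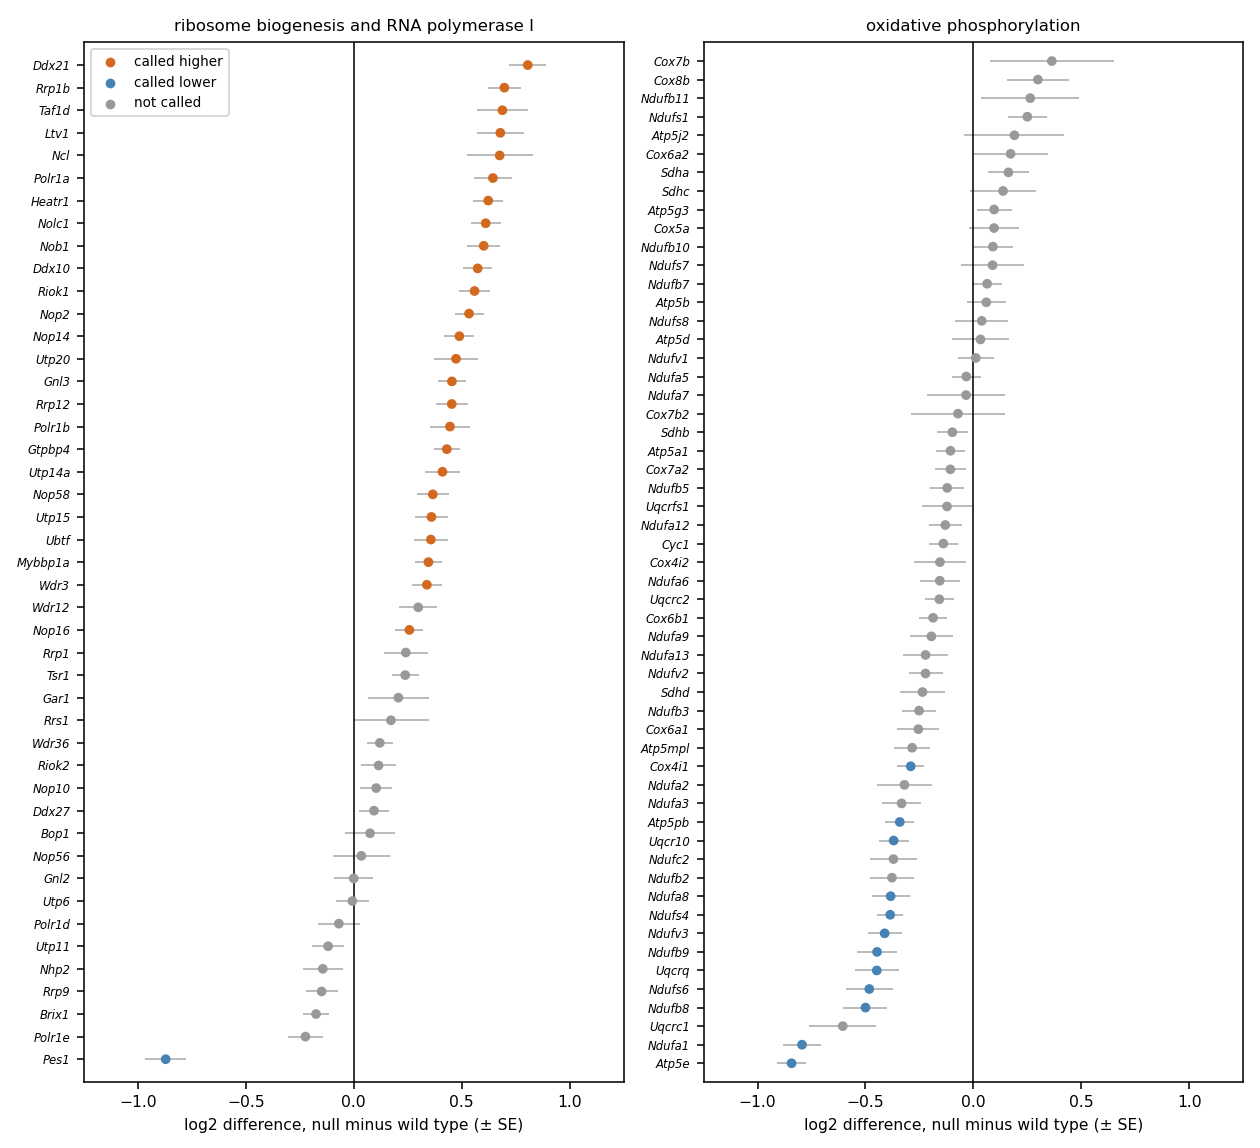
Log2 difference (null minus wild type, bars ± SE) for each measured gene of ribosome biogenesis (left) and oxidative phosphorylation (right), coloured by call. Most ribosome biogenesis genes lie right of 0 with Pes1 alone at -0.87, and the called oxidative phosphorylation genes run from Cox4i1 at -0.29 to Atp5e at -0.84.

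The length of a gene on the chromosome moved with the sign of its difference, and the lists above differ in length. Across the 8837 brighter genes with a RefSeq span the null minus wild-type difference had a Spearman correlation of 0.22 with span, given as a description across genes of the same arrays. The same measure was 0.18 for the difference between the wild-type arrays and -0.10 for that between the null arrays, so arrays of 1 line also differed along gene length. With the genes in 5 equal bins by span, 7.86% were higher and 18.7% lower in bin 1, the shortest, and 27.3% and 10.4% in bin 5, the longest. Median span was 7690 bases for oxidative phosphorylation, 19090 for ribosome biogenesis and 52114 for ubiquitin-specific proteases. In bin 2, 8 of 14 ribosome biogenesis genes rose, where 12.96% of all genes did, and in bin 3, 10 of 17, where 17.5% did. In bin 1, 7 of 27 oxidative phosphorylation genes fell, where 18.7% of all genes fell. With the trend along span removed, an alternative chosen after seeing the data, 27 ribosome biogenesis genes rose and 19 oxidative phosphorylation genes fell. That fit tested only 14941 clusters with 1 symbol and a span, which by itself changes the counts. Clusters with 1 symbol tested alone, with no trend removed, gave 27 and 18. With the span trend removed 14 ATF4, 13 heat shock, 15 actin, 24 chromatin and 14 ubiquitin-specific protease genes rose. Clusters with 1 symbol alone, with no trend removed, gave 13, 12, 16, 23 and 16. Within 1.5-fold of their count stayed 45 of the 65 lists described less fully, against 54 for clusters with 1 symbol alone.

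Carbon and lipid metabolism held steep single falls. Aldh2, the mitochondrial aldehyde dehydrogenase, gave 1178 and 1296 in the wild-type line and 124 and 143 in the null line (log2 difference -3.07 ± 0.10, limma adjusted p = 2.82e-05). Gatm, the enzyme that starts creatine synthesis, gave 1535 and 1464 on the wild-type arrays against 64.8 and 81.3 on the null arrays (log2 difference -4.09 ± 0.15, limma adjusted p = 5.07e-05). Nos2, the inducible nitric oxide synthase, gave 1549 and 1697 in wild type, and 295 and 331 without α3 (log2 difference -2.32 ± 0.10, limma adjusted p = 7.13e-05). All were lower on both null arrays. The last of these draw on arginine, and other enzymes of arginine and polyamines fell as well: Arg1, arginase, from 589 ± 160.0 to 195 ± 5.06, and Smox, spermine oxidase, from 2230.0 ± 45.4 to 974 ± 87.4. Of 21 genes in that list 5 fell and 3 rose, with the mitochondrial creatine kinase gene Ckmt1 up from 576 ± 6.42 to 1445 ± 102 and the creatine transporter gene Slc6a8 up by 0.68 ± 0.13. The 12 brighter genes of that list were called in 58.3% of cases, against 30.2% of all brighter genes. Aldehyde, aldo-keto and carbonyl enzymes gave 5 falls and 1 rise of 39, including Aldh1l1 (-1.54) and Cbr2 (-0.74). Their 20 brighter genes were called in 30.0% of cases, close to the 30.2%.

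Fatty acid oxidation and peroxisome genes fell in 8 of 39 cases and rose in 3, and 31.4% of the 35 brighter ones were called, close to the 30.2% of all brighter genes. Slc25a20, the mitochondrial carnitine carrier, gave 898 and 977 in the wild-type line and 326 and 306 in the null line (log2 difference -1.52 ± 0.11, limma adjusted p = 0.000707). Cpt1a, which commits fatty acids to the carnitine route, gave 640.2 and 734 on the wild-type arrays against 303 and 316 on the null arrays (log2 difference -1.11 ± 0.10, limma adjusted p = 0.00131). Both steps were lower in the null line, whereas Cat, peroxisomal catalase, rose from 1037 ± 69.5 to 1815 ± 206. Fatty acid synthesis and storage was balanced, 5 higher and 4 lower of 51, with Elovl4, which elongates very long chains of the skin barrier, down from 1052 ± 57.8 to 496 ± 20.8, and the lipid droplet gene Plin2 down by 0.69. Among phospholipases Pla2g4a, which releases arachidonic acid from membranes, gave 1607 and 1580.0 in wild type, and 5171 and 5519.5 without α3 (log2 difference 1.74 ± 0.10, limma adjusted p = 0.000292), while Pla1a (-1.66) and Pla2g7 (-1.37) fell. Nucleotide and one-carbon genes rose in 9 and fell in 3 of 42 cases, and 29.3% of the 41 brighter ones were called, close to the 30.2% of all brighter genes. Impdh1, of guanine nucleotide synthesis, rose from 1019 ± 34.6 to 1693 ± 65.0, Mthfd1 and Ppat by 0.62 ± 0.07 and 0.51 ± 0.06, and the interferon-inducible kinase gene Cmpk2 by 1.09 ± 0.10, while the thymidine salvage gene Tk1 fell by 0.51.

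Iron and heme genes were called often, 10 of 33 lower (30.3%, against 12.7% of brighter genes) and 5 higher, with 3 to 5 lower when an array was left out. Abcg2, an exporter of heme precursors and drugs, gave 219 and 232 in the wild-type line and 41.4 and 38.2 in the null line (log2 difference -2.11 ± 0.11, limma adjusted p = 0.000199). Steap3, a ferrireductase of endosomes, gave 254 and 254 on the wild-type arrays against 139 and 126 on the null arrays (log2 difference -0.87 ± 0.09, limma adjusted p = 0.00259). Tfrc, the transferrin receptor that brings iron in, gave 6551 and 5993 in wild type, and 4815 and 4678 without α3 (log2 difference -0.40 ± 0.10, limma adjusted p = 0.0425). These were lower on the null arrays, as was Lcn2, a siderophore-binding protein, which fell from 290.4 ± 13.1 to 80.0 ± 12.8. Cpox, a late enzyme of heme synthesis, went up, with 1519 and 1386 in the wild-type line and 2970.2 and 2702 in the null line (log2 difference 0.96 ± 0.11, limma adjusted p = 0.00363). Biliverdin reductases split, with Blvra down from 4303 ± 104 to 2543 ± 42.2 and Blvrb up from 500.3 ± 26.5 to 877 ± 33.2. Ireb2, the iron-sensing RNA-binding protein, rose by 0.39 ± 0.06.

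Transporter families held a few steep changes within counts near the background. Of 65 glucose, monocarboxylate, nucleoside and organic ion carriers 9 fell and 3 rose. Slco2a1, the prostaglandin transporter, gave 1332 and 1553 on the wild-type arrays against 41.0 and 49.7 on the null arrays (log2 difference -4.57 ± 0.12, limma adjusted p = 1.50e-05). Slc16a13, a monocarboxylate carrier family member, gave 1361 and 1210.3 in wild type, and 46.3 and 36.4 without α3 (log2 difference -4.51 ± 0.18, limma adjusted p = 6.61e-05). Slc22a4, a carrier of ergothioneine, gave 7.56 and 12.05 in the wild-type line and 495 and 508 in the null line (log2 difference 4.33 ± 0.11, limma adjusted p = 1.43e-05). The first pair was lower and the last higher on both null arrays. Of the lactate carriers, Slc16a3 (MCT4) fell from 9199 ± 585 to 55.2 ± 3.16 (log2 difference -7.02 ± 0.09, limma adjusted p = 1.55e-06), the smallest adjusted p of the list, and Slc16a1 (MCT1) rose from 2287 ± 22.8 to 3888 ± 107. Of 42 ABC transporters 7 rose and 3 fell, with Abcc3 up from 22.9 ± 9.12 to 148 ± 3.73 and Abca12, the lipid transporter of lamellar granules, up by 0.40 ± 0.08. Aqp3, the water and glycerol channel of basal epidermis, fell from 654 ± 24.9 to 248 ± 38.3, and Atp1b1, a sodium pump subunit, fell from 437 ± 23.3 to 181 ± 14.2. Most ion channel genes were dim. Calls were 2 higher and 2 lower of 73 potassium channels, and 4 and 2 of 88 calcium, TRP, sodium and chloride channels, led by Ano10 (1.14). The 15 and 23 brighter genes of these lists were called in 13.3% and 17.4% of cases, against 30.2% of all brighter genes.

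Of 28 phospholipase C, protein kinase C and diacylglycerol kinase genes 7 rose and 1 fell, where 17.5% of brighter genes were higher and 12.7% lower. Plcb1, a phospholipase C driven by G proteins, gave 40.1 and 33.5 on the wild-type arrays against 193 and 199 on the null arrays (log2 difference 2.005 ± 0.12, limma adjusted p = 0.000278). Plcg1, the form driven by receptor tyrosine kinases, gave 1009.5 and 998 in wild type, and 696 and 617 without α3 (log2 difference -0.60 ± 0.08, limma adjusted p = 0.00706). The null line was higher for Plcb1 and lower for Plcg1. Of 52 cyclic nucleotide genes 8 rose (15.4%) and 2 fell, with Prkar2b, a regulatory subunit of protein kinase A, up from 94.5 ± 4.63 to 315 ± 7.60 and Adcy7, an adenylyl cyclase, up from 116 ± 5.06 to 242 ± 11.2. Of 21 regulators of G-protein signalling 2 rose and 3 fell, with Rgs20 (2.29) and Rgs10 (1.20) up and Rgs2 (-1.08) down. Growth factor families were called in both directions. Of 36 TGF-β and activin genes 4 rose and 5 fell, and both receptor genes Tgfbr1 (0.26) and Tgfbr2 (0.47) rose while the follistatin-like gene Fstl1 fell from 1766 ± 160.0 to 204 ± 2.58. Of 44 other receptor tyrosine kinase and ligand genes 2 rose (4.55%) and 5 fell (11.4%), and 22.2% of the 18 brighter ones were called, against 30.2%. The rises were those of Met, the receptor of hepatocyte growth factor, from 3438 ± 127 to 4961 ± 189, and Kitl, the ligand of Kit, from 135 ± 5.51 to 473 ± 50.7. The falls included Pros1, given above, Gfra2 (-1.29), Pdgfb (-1.28) and Pdgfc (-0.82). In the hedgehog list the Disp1 gene, whose product releases the ligand, fell from 532 ± 55.2 to 68.2 ± 3.46, whereas the receptor gene Ptch1 rose by 0.41 ± 0.09. Retinoid genes moved in both directions, with Rdh10 and Dhrs9, which oxidise retinol, up by 1.76 ± 0.09 and 1.42 ± 0.06, and Crabp2, which carries retinoic acid to the nucleus, down from 474 ± 5.88 to 59.8 ± 5.80. S100 proteins fell in 4 of 14 cases, among them the calprotectin genes S100a8, with 679 and 891 in the wild-type line and 75.8 and 87.3 in the null line (log2 difference -3.03 ± 0.15, limma adjusted p = 0.000141), and S100a9 (-1.99). The S100pbp gene, 1 of the 4, encodes a binding partner counted by its symbol. Their 9 brighter genes were called in 33.3% of cases, close to the 30.2% of all brighter genes. Hydrocortisone was in the medium of both lines, and of 21 glucocorticoid response genes 2 rose and 5 fell. The 15 brighter ones were called in 40.0% of cases, against 30.2% of all brighter genes. The receptor gene Nr3c1 (0.04 ± 0.08) and its target Fkbp5 (0.16 ± 0.12) were not called, while Ddit4 fell from 2192 ± 273 to 897 ± 100.1 and Hsd11b1, which regenerates active glucocorticoid, rose from 154 ± 36.4 to 325 ± 61.4.

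Calls in the chromatin families were near the background. Of 77 Polycomb, DNA methylation and histone modifier genes 16 rose (20.8%) and 3 fell, with a median of 0.16, and 4 to 7 rose when an array was left out. The share is close to the 17.5% of all brighter genes, and 24.3% of its 70 brighter genes were called in either direction, against 30.2%. Ezh2, the methyltransferase of Polycomb, gave 1718 and 1763 on the wild-type arrays against 2529.8 and 2646 on the null arrays (log2 difference 0.57 ± 0.06, limma adjusted p = 0.00277). Cbx1, which encodes the heterochromatin protein HP1β, gave 3494 and 3363 in wild type, and 1565 and 1698 without α3 (log2 difference -1.06 ± 0.08, limma adjusted p = 0.000796). The null arrays were higher for the first and lower for the second. Hdac4 rose by 0.65 ± 0.09 and Sirt5 by 0.98 ± 0.11, while Sirt7 (-0.46) and Hdac5 (-0.57) fell. Kdm5d, a histone demethylase gene on the Y chromosome, gave 12.9 and 7.25 in the wild-type line and 219.5 and 211 in the null line, whereas Eif2s3y, also on the Y chromosome, gave 19.2 and 22.7 in wild type and 29.5 and 24.7 in the null line and was not called. The sex of the mice behind the lines was not given in the sources used here, so a difference in sex and the absence of α3 cannot be told apart for Kdm5d.

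Ubiquitin-specific proteases, which remove ubiquitin from proteins, were called higher in 15 of 41 cases (36.6%) and lower in 1, with a median of 0.18; 1 of the 15, Usp6nl, shares only the start of the symbol. Usp12 gave 324 and 303 on the wild-type arrays against 529 and 507 on the null arrays (log2 difference 0.70 ± 0.08, limma adjusted p = 0.00369). Usp15, which acts on receptor-regulated SMADs among others, gave 916 and 907 in wild type, and 1309 and 1439 without α3 (log2 difference 0.58 ± 0.08, limma adjusted p = 0.00623). Usp10 gave 932 and 909 in the wild-type line and 1337 and 1259 in the null line (log2 difference 0.49 ± 0.07, limma adjusted p = 0.00662). Each null value exceeded each wild-type value by a small step, and Usp53 and Usp24 rose by 0.51 ± 0.07 and 0.59 ± 0.09. Usp19 fell from 642 ± 4.16 to 479 ± 13.1. Long genes are frequent in this family, and of its members in span bin 5, the longest, 7 of 13 rose, where 27.3% of all genes did, with 5 of 12 in bin 4, where 21.8% did. Leaving out an array left 2 to 6 rises.

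Transcription factor families carried steep changes of single members. Pitx1, a homeobox gene of the hind limb, gave 70.2 and 69.7 on the wild-type arrays against 692 and 752 on the null arrays (log2 difference 3.10 ± 0.08, limma adjusted p = 1.43e-05). Foxa1, a pioneer factor of endodermal epithelia, gave 24.7 and 23.0 in wild type, and 517 and 430.3 without α3 (log2 difference 3.61 ± 0.11, limma adjusted p = 2.30e-05). Bhlhe41, a repressor of the circadian clock, gave 17.4 and 21.2 in the wild-type line and 228 and 248 in the null line (log2 difference 2.85 ± 0.13, limma adjusted p = 0.000123). All 3 were low in wild type and clearly higher in the null line. Tcfl5, a basic helix-loop-helix factor known from testis, gave 1365 and 1331 on the wild-type arrays against 108 and 107 on the null arrays (log2 difference -3.46 ± 0.08, limma adjusted p = 1.10e-05). Foxj1, the regulator of motile cilia, gave 261 and 252 in wild type, and 37.0 and 37.7 without α3 (log2 difference -2.35 ± 0.08, limma adjusted p = 4.29e-05). H1f1, a linker histone gene, gave 4714 and 4477 in the wild-type line and 177 and 130.2 in the null line (log2 difference -4.78 ± 0.14, limma adjusted p = 2.13e-05). These were lower on both null arrays. By family, 11 of 72 SOX, FOX and KLF genes rose and 4 fell, including Klf4, a factor of epidermal barrier formation, which rose from 517 ± 18.4 to 826 ± 5.38. Of 84 homeobox genes outside the Hox clusters 9 fell and 4 rose, and the Iroquois genes divided, with Irx2 (-1.70) and Irx5 (-1.27) down and Irx3 (0.67) up. Of 44 ETS, GATA, TBX and RUNX genes 6 rose and 5 fell. The epithelial ETS genes Ehf and Elf3 rose from 402 ± 13.1 to 966 ± 87.9 and from 141 ± 9.91 to 249.7 ± 14.5, and Gata3 fell from 273 ± 27.4 to 131 ± 16.4. Clock genes were mixed: Bhlhe40, the closest relative of Bhlhe41, fell from 1988 ± 10.0 to 672 ± 104, Clock rose by 0.82 ± 0.07 and its partner Arntl was not called (0.07 ± 0.07). Id2 rose from 179.8 ± 26.5 to 503 ± 56.0 and Id3 fell from 544 ± 56.6 to 352 ± 32.9. Of 38 pocket protein, E2F and CDK inhibitor genes 6 rose and 6 fell (15.8% each), beside 17.5% and 12.7% of brighter genes. Cell cycle brakes were divided too, with the p18 gene Cdkn2c up by 0.78 ± 0.11 and the p21 gene Cdkn1a down by 0.51. The cyclin-dependent kinase gene Cdk6 rose from 1393 ± 14.5 to 2509 ± 158.

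Calls in some large families were near or below the background. Of 212 zinc finger genes 27 fell (12.7%, as among all brighter genes) and 13 rose, 19.2% of its 146 brighter genes were called against 30.2%, and 7 fell by 2-fold or more, among them Zfp334, with 296 and 276 on the wild-type arrays against 32.8 and 38.7 on the null arrays (log2 difference -2.55 ± 0.12, limma adjusted p = 0.000129), and Zfp870, which fell from 221 ± 27.3 to 10.3 ± 0.522. Of 70 cilium and centrosome genes 11 fell and 6 rose, and the steepest fall was that of Foxj1, given above. Among 14 genes of intraflagellar transport, the cargo system of the cilium, whose symbols start with Ift, 5 fell and 1 rose, with falls in Ift27, from 383 ± 22.1 to 211 ± 8.81, Ift22 (-0.64) and Ift52 (-0.54), and among 33 centrosomal genes whose symbols start with Cep 5 rose and 3 fell, with rises in Cep83 (0.57), Cep164 (0.52) and Cep192 (0.38). Among splicing factors 10 of 57 rose and 3 fell, with Elavl2, a neuronal RNA-binding protein, down from 549 ± 7.46 to 44.7 ± 4.29. Germ-cell and early embryonic genes had 2 calls of 44, and of 800 olfactory and vomeronasal receptors, the chemosensory receptors of the nose, 9 were called, or 1.12%. Both lists were almost wholly dim, and among all dimmer genes 1.01% were higher and 3.26% lower. Their 5 and 11 brighter genes were called in 40.0% and 18.2% of cases. Over all 76 lists 700 of 3864 distinct genes were called, 398 higher and 302 lower.

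**Figure D4:**
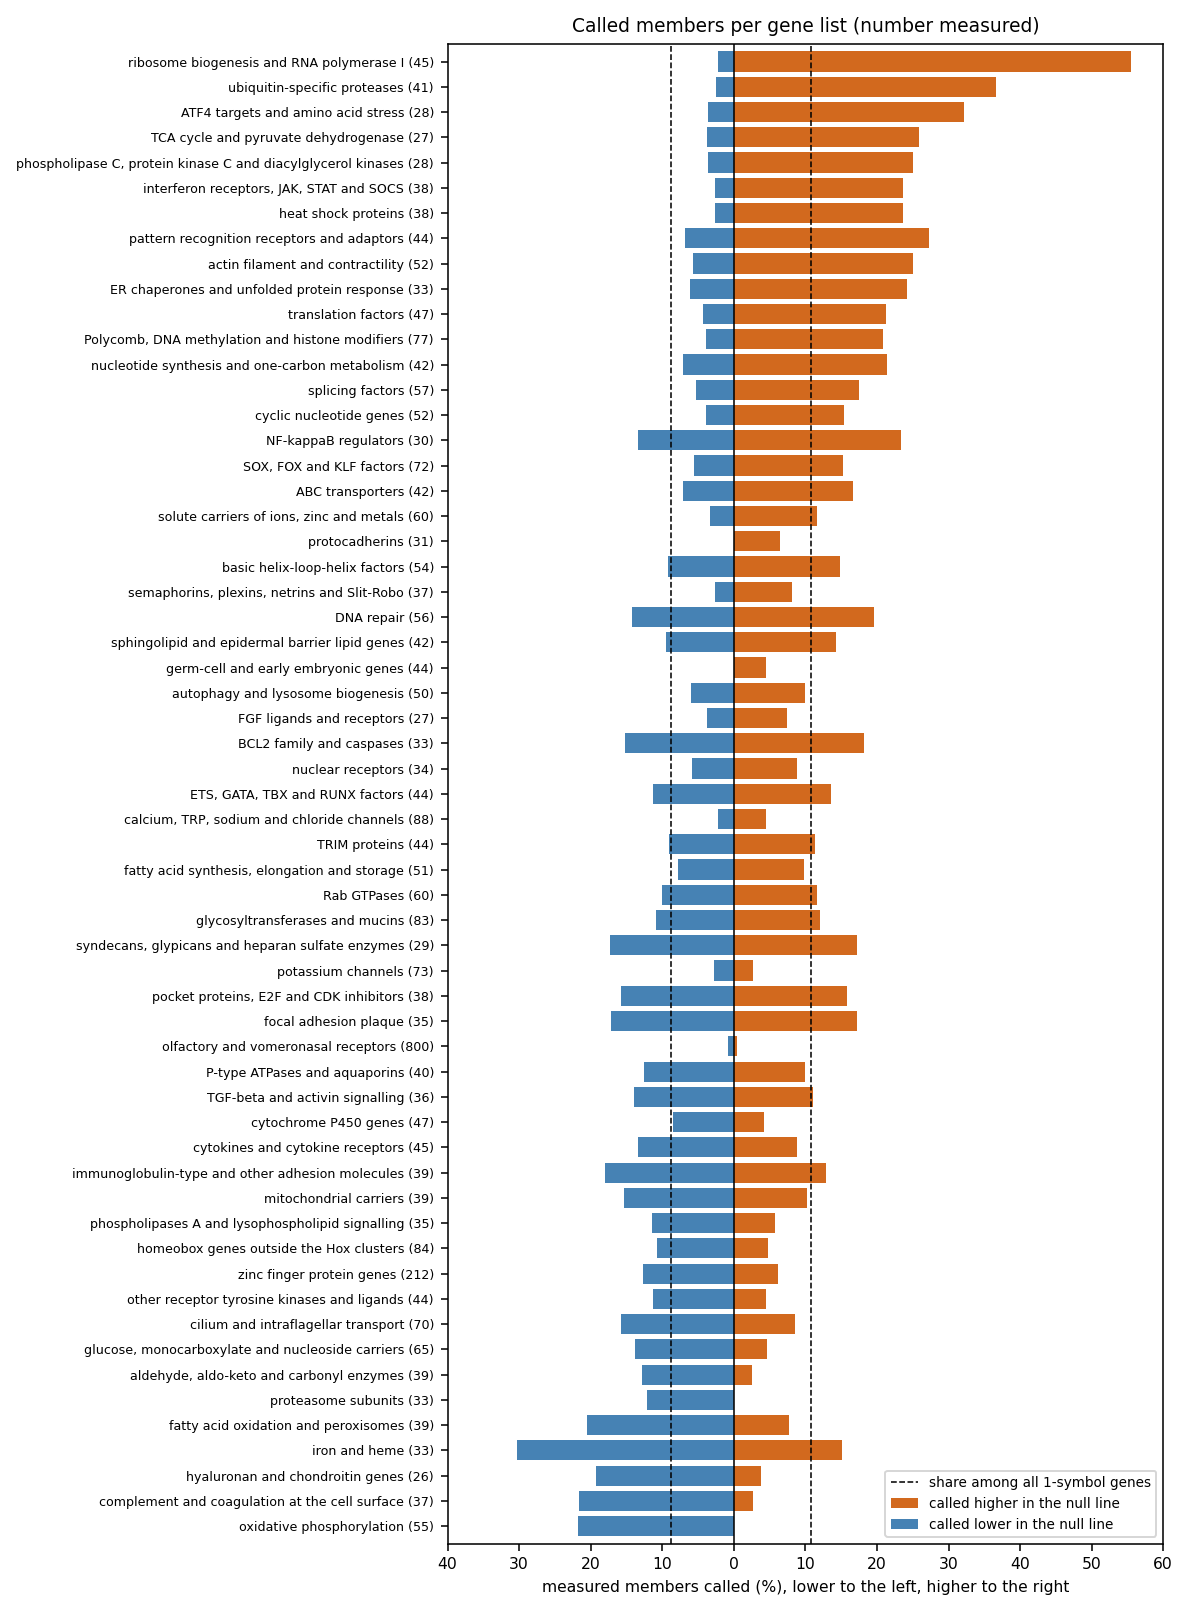
Share of measured members called higher (orange, to the right) and lower (blue, to the left) in the null line for each of the 59 lists with 25 or more measured genes, ordered by the difference of the shares; dashed lines give the shares among all 1-symbol genes, 10.8% and 8.82%. Ribosome biogenesis stands out to the right with 55.6%, and iron and heme genes have the longest bar to the left with 30.3%.

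Differences also followed position on the chromosomes. Over the brighter genes with 1 symbol, the median log2 difference ranged over 20 chromosomes from -0.13 on chromosome 16 to 0.18 on chromosome 10. The same medians ranged from -0.03 to 0.01 between the wild-type arrays and from 0.03 to 0.07 between the null arrays. On chromosome 10, 29.0% of 427 genes were higher and 6.09% lower, and on chromosome 16, 6.74% of 282 were higher and 18.8% lower. Within chromosomes the sign switched in blocks when the genes were split into 6 equal segments by order along the assembly. On chromosome 14 the medians of segments 1 and 2 were 0.13 and 0.29, and those of segments 3 to 6 lay between -0.17 and -0.24, with 0 of 49 genes higher in segment 3 and 13 lower. On chromosome 2 segments 1 and 3 were at 0.16 and 0.20 and the remaining ones between -0.14 and -0.21. The lowest of all 120 segments was segment 5 of chromosome 9, at -0.36, with 0 of 87 genes higher and 43 lower. In contrast, segment medians ranged from -0.07 to 0.04 between the wild-type arrays and from 0.001 to 0.09 between the null arrays. With the median of each position removed, an alternative chosen after seeing the data, 23 ribosome biogenesis genes rose, 16 ubiquitin-specific proteases rose and 24 oxidative phosphorylation genes fell. Only 14938 clusters with 1 symbol were tested there. Clusters with 1 symbol tested alone, with nothing removed, gave 27, 16 and 18. Of 443 called genes named by the rule 410 kept their call with the position median removed, 32 lost it and 1, Hsp90b1, changed sign. Gene order comes from RefSeq GRCm38.p6, since a build for the array annotation was not given in the sources used here.

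**Figure D5:**
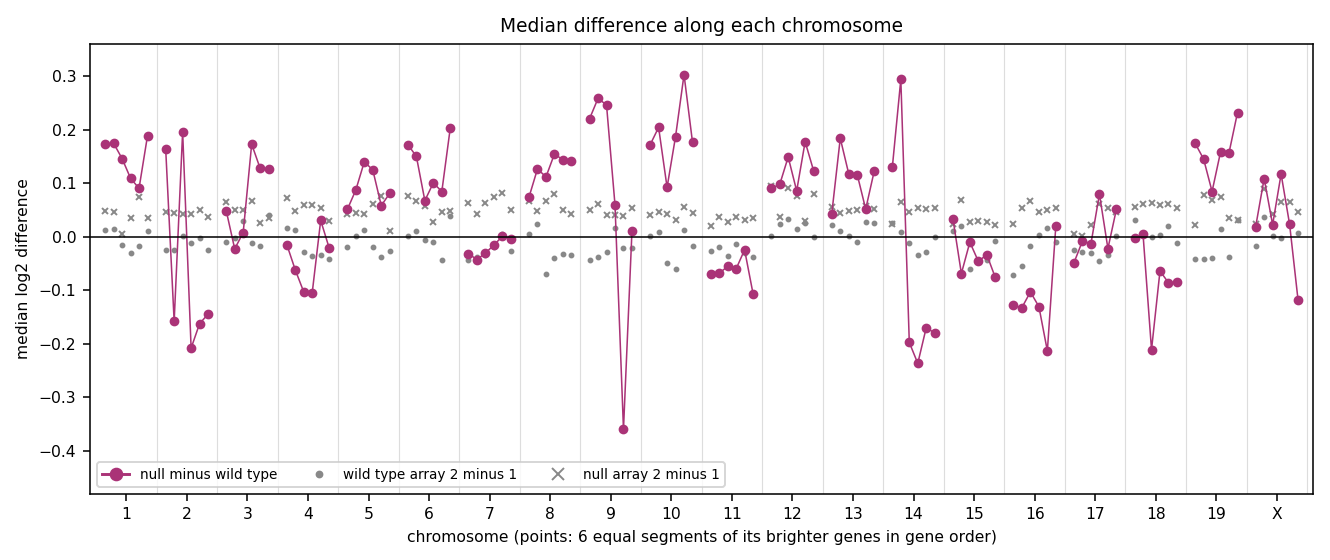
Median log2 difference of brighter genes in each of 6 equal segments of each chromosome, in gene order, for null minus wild type (purple circles and lines) and for array 2 minus array 1 of the wild-type line (grey dots) and the null line (grey crosses). The purple medians range from -0.36 to 0.30, with abrupt steps on chromosomes 2, 9 and 14, while the grey ones stay between -0.07 and 0.09.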

How the data were processed

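Expression was measured on Affymetrix Mouse Exon 1.0 ST arrays, and groups and replicate numbers came from the sample titles. The values deposited by the authors are intensities, which per the labels were made with PLIER from core exons in Affymetrix Expression Console; the series design names another program, the Exon Array Computational Tool. Background correction, scaling between arrays, software versions and genome build were not given in the sources used here. Precision is limited by 2 arrays per line.

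Intensities were analysed as log2(intensity + 16), without a filter. Line means were estimated from all 6 arrays with limma 3.58.1 under R 4.3.3 (lmFit, and eBayes with its trend option), with 3 residual and 3.00 prior degrees of freedom. Two-sided p-values were adjusted by Benjamini-Hochberg over 23332 clusters, and the script was tested on simulated data. The platform annotation assigned 14996 clusters to 1 symbol, 1019 to several and 7317 to none, and 14941 matched the RefSeq gene table (GRCm38.p6) by Entrez identifier with 0 symbols changed. For a symbol with several clusters the brightest was used.

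The 76 gene lists, the 11 lists described most fully and the comparison itself were chosen with earlier results of these data known. Lists are given by counts and medians beside the background, with no list test. Genes named are, per list, up to 6 called members with the smallest adjusted p, up to 3 called in the minority direction and the first 2 of a hand-written list, plus Itga3 and the markers. Predicted genes were not named, and 1 gene list is not reported here. Numbers did not pair the arrays, since deviations of same-numbered arrays of wild type and null correlated at 0.03. Other pseudocounts, scalings, filters, variance models, sample sets and thresholds were tried, and removal of trends along gene span and chromosome was added after seeing the data.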

Additional observations from a re-analysis of the deposited data

How the results depend on the processing

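Of the 444 called genes named by the rule, every one kept its direction under the settings tried except Hsp90b1, which moved to a log2 difference of -0.0198 (limma adjusted p = 0.830) with the median of its chromosome position removed. Among 3578 calls, 1982 higher and 1596 lower, the total was 2306 (1191 higher) without the intensity trend and 634 (206 higher, 428 lower) at 2-fold or more. Leaving out an array gave 1174 to 1680 calls, 564 to 795 higher and 610 to 911 lower. Replicate number as a replicate block gave 3102 calls, 1691 higher and 1411 lower, and 413 of 444 named genes kept their call, but the numbers mark no pairing. Quantile normalization gave 3786 calls and median centring 4113. With chromosome position removed the balance turned: of 4034 calls 1700 were higher and 2334 lower (42.1% higher). Clusters with 1 symbol, tested alone without that removal, gave 2136 higher and 1821 lower.

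At 2-fold the 11 lists kept 2 actin, 1 interferon, 1 pattern recognition, 4 complement, 1 ATF4, 3 iron and 1 Polycomb gene, and 0 heat shock, oxidative phosphorylation, ribosome biogenesis and ubiquitin-specific protease genes. Without the intensity trend the counts were 5 interferon, 7 pattern recognition, 5 ATF4, 3 oxidative phosphorylation, 6 iron, 15 ribosome biogenesis and 9 ubiquitin-specific protease genes. With only clusters at or above the median mean, 5 complement and 14 ATF4 genes were called, the former because fewer members were tested. Removing the trend along gene span gave 14 ATF4 and 19 oxidative phosphorylation genes, and removing chromosome position 24 oxidative phosphorylation genes. Both removals tested only clusters with 1 symbol. Those clusters tested alone, with nothing removed, gave 13 ATF4 and 18 oxidative phosphorylation genes. The cause of the other shifts was not tested. Leaving out an array gave 3 to 5 actin, 2 to 4 interferon, 2 to 6 pattern recognition, 4 to 5 complement, 1 to 7 ATF4, 3 to 5 heat shock, 2 to 3 oxidative phosphorylation, 3 to 5 iron, 7 to 14 ribosome biogenesis, 4 to 7 Polycomb and 2 to 6 ubiquitin-specific protease genes. Of the other 65 lists, 41 stayed within 1.5-fold of their count without the intensity trend, and 7 to 14 did when an array was left out.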

Other observations

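Families were also formed from the letters that start gene symbols, without a hand-written list. Of 167 such symbol roots with 10 or more measured genes, 13 had 0 calls by limma, and the median root had 19.3% of its genes called. The roots with the highest shares, picked by that share and so a description only, were Cyb (80.0% of 10 genes, 2 higher and 6 lower), which gathers cytochrome b genes of unrelated function, and Sprr, the small proline-rich envelope proteins (76.9% of 13, 1 higher and 9 lower, median log2 difference -1.33). They were followed by Hoxb (2 higher and 3 lower of 10), Ppm (3 and 3 of 12) and Serpinb (5 and 3 of 16). Prpf, splicing factors of the spliceosome core, had 45.5% of 11 called, 4 higher and 1 lower. Ift, the intraflagellar transport genes, had 42.9% of 14 called, 1 higher and 5 lower, with a median of -0.33. Nup, the nucleoporins of the nuclear pore, had 41.2% of 17 called, all 7 of them higher, with a median of 0.28. Polr, the RNA polymerase subunits, had 40.9% of 22 called, 7 higher and 2 lower.

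Other motifs were counted in the promoter windows of called genes, as shares of windows and with no test. The heat shock element, searched as GAANNTTC on both strands, was in 45.5% of 11 windows of heat shock genes called higher, in 14.7% of 34 windows of those not called and in 7.86% of all windows. The E-box CACGTG, added after seeing the data, was in 13.3% of 30 windows of ribosome biogenesis genes called higher, in 6.67% of 15 windows of those not called and in 7.15% of all windows. The TEAD motif was in 28.6% of 21 windows of actin genes called higher, in 32.4% of 34 windows of those not called and in 14.7% of all windows.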
